A study of Homo sapiens with 8 samples.

Results

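Late cornification turns a living upper keratinocyte into a dead, flattened squame, and 10 genes of that step were followed here: CASP14, ASPRV1, CDSN, SBSN, KRTDAP, DMKN, CNFN, CALML5, KPRP and C1orf68. They were chosen by name, as the rows of the raw count table with these gene names, and make up 10 of its 58735 rows. The reads came from EPC2-hTERT, an established line of human esophageal epithelial cells immortalised with telomerase, grown on porous inserts for 2 days, then for 5 days in 1.8 mM calcium, and then lifted to the air-liquid interface, where such cells stratify. The 4 control libraries (CTRL) came from cells labelled control, whose construct the labels do not describe. The other 4 libraries (miR-155OE) came from a stable line made with a lentivirus that overexpresses miR-155-5p. Both groups therefore share the hTERT-immortalised background and the same culture scheme, and the miR-155OE group rests on 1 transduced line.

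In the epidermis, and to a smaller degree in the esophagus, keratinocytes that leave the basal layer first make keratins and desmosomes and later the proteins of the cornified layer. Proteases of that layer, CASP14 and ASPRV1 among them, process filaggrin, the protein that packs keratin filaments. Corneodesmosin, the product of CDSN, is added to desmosomes so that dead squames hold together until kallikrein proteases cut the bond. The remaining genes encode secreted proteins of the upper layers (SBSN, DMKN, KRTDAP) and proteins of or near the cornified envelope, the crosslinked shell that replaces the cell membrane (CNFN, CALML5, KPRP, C1orf68).

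Total counts ran from 33.4 to 52.7 M per library, and 15135 genes, all 10 of these among them, had enough reads to be tested. MIR155HG and MIR155, the host gene and hairpin of the microRNA, had 0 reads in the 8 libraries, so neither gave a check of the labels. For scale, 3 reads would be 0.0573 to 0.0901 CPM (counts per 1 M counts after scaling). Libraries are numbered 1 to 4 within a group, and no label says that the numbers are separate cultures, so p-values cover only the spread among these libraries, part of which may be technical. The basal keratins KRT5 and KRT14 were abundant in every library, at 5770 CPM or more. KRT4 and KRT13, the keratins that define the upper esophageal layers, were low. KRT4 averaged 95.4 ± 29.2 CPM over the CTRL and 17.3 ± 20.8 CPM over the miR-155OE libraries, and KRT13 averaged 11.4 ± 6.32 and 2.96 ± 3.58 CPM (SD, 4 libraries a group).

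The overexpressed microRNA is shown because its seed, bases 2 to 8 in capitals, sets which transcripts it can pair with. The mature sequence is RefSeq's (GRCh38.p14, chr21:25573983-25574006, plus strand).
miR-155-5p: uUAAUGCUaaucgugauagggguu
The complement of that seed, AGCATTA, and the shorter match GCATTA followed by A were searched in each gene's longest 3′ UTR in GENCODE 29. None of the 10 genes held it, whereas 17.6% of the 12510 tested genes with such a UTR did. The UTRs of the 10 genes were short, with a median of 310 bases against 1381.5 bases over all tested genes. An absent match says only that these letters are not in these UTR models.

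All 10 genes had a fitted log2 fold change (miR-155OE over CTRL) above 0, as did 48.7% of all tested genes. Their median was 0.91, against −0.01 over all genes tested. By edgeR's quasi-likelihood test fitted on group alone, with Benjamini-Hochberg adjustment over all 15135 genes, 2 of the 10 rose, CASP14 and ASPRV1, where 2.17% of tested genes rose. With the replicate number added as a block, 6 of the 10 rose (CASP14, ASPRV1, CDSN, KRTDAP, CNFN and CALML5), where 7.43% of tested genes rose. SBSN, DMKN, KPRP and C1orf68 passed in neither fit. DESeq2 called 3 of the 10 higher (background 5.13%), as did the authors' deposited table at its adjusted p (background 3.03%), and both times they were CASP14, ASPRV1 and CNFN. At an unadjusted p under 0.05, 8 of the 10 were higher (background 10.7%). The 2 groups of libraries did not overlap for 1 of the 10, ASPRV1 (background 6.16%), while 9 of the 10 were higher in miR-155OE in 4 of 4 same-numbered pairs (background 18.8%). In bulk RNA such as this, more cells of a type and more RNA per cell cannot be told apart.

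**Figure D1:**
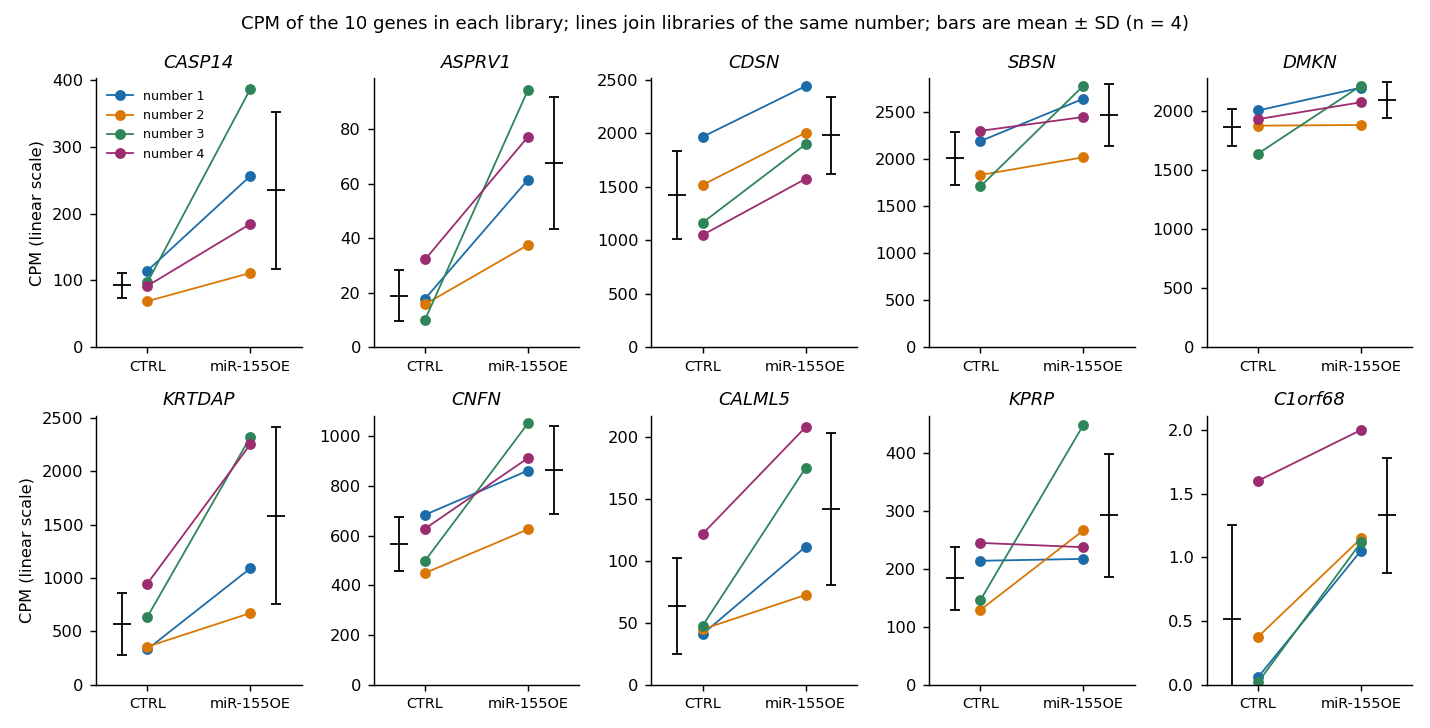
CPM (linear axis from 0) of each of the 10 genes in the 4 CTRL and 4 miR-155OE libraries, with lines joining libraries of the same number and black bars giving the mean ± SD (n = 4); the CTRL bar of C1orf68 runs below 0 and is cut there. Lines slope upward in all panels except the line of number 4 for KPRP, and only in ASPRV1 do all miR-155OE points lie above all CTRL points.

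The count of calls depended on single libraries. Leaving out CTRL 1, 2 or 3 or miR-155OE 1 or 3 left 0 of the 10 genes passing on group alone, leaving out miR-155OE 4 left 1, leaving out CTRL 4 left 3, and leaving out miR-155OE 2 left 5. In the paired fit, leaving out both libraries of number 1, 2, 3 or 4 in turn left 6, 6, 6 and 7, and the 6 genes named above passed each time. The block moved the log2 fold change of C1orf68 from 1.38 to 1.99 and, next to it, that of CASP14 from 1.33 to 1.21.

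**Figure D2:**
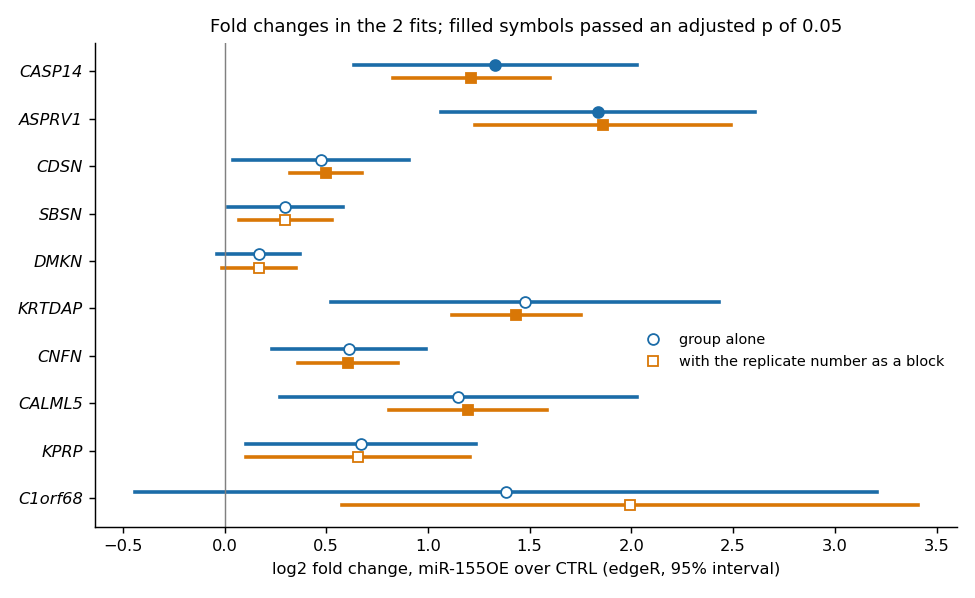
Log2 fold change (miR-155OE over CTRL, edgeR) of the 10 genes with 95% intervals, for the fit on group alone (blue circles) and the blocked fit, which adds the replicate number (orange squares); filled symbols passed an adjusted p of 0.05. CASP14 and ASPRV1 are filled in both fits, and each blocked interval is narrower than the one on group alone.

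Promoter windows of RefSeq (GRCh38.p14), 250 bases before to 50 after an annotated start, were available at the position of the files' gene for 9 of the 10 genes, in 11 windows. The windows listed for ASPRV1 lay away from the counted gene and were not used. Both strands were searched for 4 short patterns tied to keratinocyte transcription: TGANTCA for AP-1 (the same on both strands and counted once), AACCNGTT for the grainyhead-like factors, CCACNCCC for the KLF factors, and TATAAA. AP-1 letters stood in 5 of the 11 windows, of 4 genes (CASP14, SBSN, KRTDAP and DMKN), and in 7.71% of all 35116 windows. KLF letters stood in 5 of the 11, of 5 genes (CDSN, KRTDAP, DMKN, CNFN and KPRP), and in 17.2% of all windows. TATAAA stood in 2 of the 11, of 2 genes (KRTDAP and KPRP), and in 11.5% of all windows. The grainyhead-like letters stood in none of the 11 and in 1.73% of all windows. A match is a run of letters, not a shown binding site. The windows of the 4 genes with AP-1 letters are printed 5′ to 3′ with every match in capitals, since 3 of them are neighbours on chromosome 19. They cover chr19:15049230-15049529 (CASP14, plus strand), chr19:35528262-35528561 (SBSN), chr19:35513600-35513899 (DMKN, 1 of 3 windows) and chr19:35490415-35490714 (KRTDAP), the last 3 on the minus strand.
CASP14: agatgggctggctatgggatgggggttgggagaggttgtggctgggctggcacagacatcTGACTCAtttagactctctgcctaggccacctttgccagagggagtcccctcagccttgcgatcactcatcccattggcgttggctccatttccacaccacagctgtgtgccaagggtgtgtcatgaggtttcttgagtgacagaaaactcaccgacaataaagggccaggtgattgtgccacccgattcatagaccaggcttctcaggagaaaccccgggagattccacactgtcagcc
SBSN: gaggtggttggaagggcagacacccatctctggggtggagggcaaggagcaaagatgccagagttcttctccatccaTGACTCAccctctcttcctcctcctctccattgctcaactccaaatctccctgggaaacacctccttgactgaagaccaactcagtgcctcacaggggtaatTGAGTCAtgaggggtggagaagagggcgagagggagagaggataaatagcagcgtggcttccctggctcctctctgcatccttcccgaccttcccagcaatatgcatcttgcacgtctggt
DMKN: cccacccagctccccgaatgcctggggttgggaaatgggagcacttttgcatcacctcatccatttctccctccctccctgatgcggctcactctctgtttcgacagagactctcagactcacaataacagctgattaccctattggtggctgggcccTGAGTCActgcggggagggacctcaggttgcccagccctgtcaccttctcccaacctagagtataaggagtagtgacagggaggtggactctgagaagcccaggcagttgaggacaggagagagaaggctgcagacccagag
KRTDAP: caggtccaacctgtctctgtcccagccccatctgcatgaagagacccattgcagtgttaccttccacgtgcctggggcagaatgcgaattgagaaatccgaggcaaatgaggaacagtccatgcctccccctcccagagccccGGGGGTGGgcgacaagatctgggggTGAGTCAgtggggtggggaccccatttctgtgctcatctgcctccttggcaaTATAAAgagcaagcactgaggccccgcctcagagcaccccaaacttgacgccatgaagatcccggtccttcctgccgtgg
The AP-1 letters begin 190 bases before the start in CASP14, 173 and 71 before it in SBSN, 92 before it in DMKN and 82 before it in KRTDAP. KRTDAP is the only one of the 4 with TATAAA, beginning 30 bases before the start, and it also holds KLF letters, read on the other strand, 107 bases before it.

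CASP14, the caspase of cornifying keratinocytes (ENSG00000105141, chr19:15049384-15058293), was measured at 115, 69.1, 97.1 and 92.0 CPM in CTRL 1 to 4. In miR-155OE 1 to 4 it was measured at 256, 111, 386 and 184 CPM. The CTRL libraries were close together, the miR-155OE libraries spread widely, and the lowest of these, number 2, lay just below the highest CTRL library, number 1. The mean went from 93.2 ± 18.7 to 234 ± 117 CPM (SD, n = 4 each). CASP14 rose on group alone (edgeR adjusted p = 0.0488, log2 fold change 1.33, SE 0.31) and with the replicate block (1.21, SE 0.17, adjusted p = 0.00355), and was higher in 4 of 4 pairs, by 1.61- to 3.97-fold. Its call on group alone was lost without any 1 of the libraries other than miR-155OE 2 (highest adjusted p = 0.124), with log2 fold changes of 0.98 to 1.57.

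ASPRV1, the retroviral-like aspartic protease that trims filaggrin precursors (ENSG00000244617, chr2:69960089-69962265), stood at 17.8, 15.8, 10.2 and 32.2 CPM in CTRL 1 to 4. It stood at 61.5, 37.6, 94.4 and 77.2 CPM in miR-155OE 1 to 4. Every miR-155OE library was above every CTRL library, with CTRL 4 the nearest to the other group. The means were 19.0 ± 9.39 and 67.7 ± 24.1 CPM (SD, n = 4 each). ASPRV1 had the largest fold change of the 10 on group alone (edgeR adjusted p = 0.0246, log2 fold change 1.83, SE 0.35; with the block 1.86, SE 0.28, adjusted p = 0.00426). In pair 3 it was 9.26-fold higher and in the other pairs 2.37- to 3.45-fold higher. The call on group alone was lost without CTRL 1, 2 or 3 or miR-155OE 1 or 3 (highest adjusted p = 0.0748). ASPRV1 overlaps the noncoding PCBP1-AS1 by 3 bases on the same strand, and PCBP1-AS1 itself did not pass (log2 fold change −0.28, edgeR adjusted p = 0.424).

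The filaggrin-type genes, whose products such proteases process, gave no call with all 8 libraries: FLG, FLG2 and HRNR passed in neither fit. FLG, the filaggrin gene, averaged 260.2 ± 58.2 CPM over CTRL and 239 ± 30.4 CPM over miR-155OE (SD, n = 4 each), with an edgeR adjusted p of 0.731 for a log2 fold change of −0.12. Of 12 tested genes of the filaggrin group and its processing, CASP14 and ASPRV1 left out, 2 rose and 1 fell on group alone and the median log2 fold change was −0.07. Over all tested genes 2.17% rose and 1.05% fell in that fit, and 7.43% rose and 5.17% fell with the block. The 2 that rose were PCSK6, a proprotein convertase (0.82, SE 0.09, adjusted p = 0.00143), and BLMH, bleomycin hydrolase, which cuts filaggrin peptides to amino acids (0.51, SE 0.10, adjusted p = 0.0322). RPTN, a filaggrin-related envelope precursor, fell (−0.51, SE 0.12, adjusted p = 0.0462). With the block 2 rose and 3 fell, the falls being RPTN, PADI1, a peptidylarginine deiminase (−1.33, SE 0.29), and CAPN1, a calpain (−0.29, SE 0.06), the last 2 named after their values were seen. The blocked falls were 1 (RPTN) without both libraries of number 1 or of number 4 and 3 without number 2. Without number 3 the falls were 4, with FLG added. PCSK6 passed without any 1 library, while BLMH and RPTN passed without only 2 of the 8 (highest adjusted p = 0.0975 and 0.128). With library totals as the only scaling RPTN did not pass (edgeR adjusted p = 0.0579).

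CDSN, which encodes corneodesmosin (ENSG00000204539, chr6:31115090-31120446), stood at 1968, 1519, 1166 and 1051 CPM in CTRL 1 to 4. In miR-155OE 1 to 4 it stood at 2441, 2006, 1898 and 1575 CPM. The libraries took the same order by number in both groups, 1 highest and 4 lowest, and the groups overlapped. The means were 1426 ± 412 and 1980.0 ± 358 CPM (SD, n = 4 each), and on group alone the difference did not pass (edgeR adjusted p = 0.216, log2 fold change 0.47, SE 0.20). CDSN was higher in 4 of 4 pairs, by 1.24- to 1.63-fold, and with the replicate block it rose (edgeR adjusted p = 0.00508, log2 fold change 0.50, SE 0.08). CDSN lies wholly within PSORS1C1, a gene on the opposite strand whose span covers all 5357 bases from the start to the end of CDSN. PSORS1C1 did not pass in either fit (0.19 on group alone, adjusted p = 0.659), averaging 25.7 ± 6.88 CPM over CTRL and 29.4 ± 6.64 CPM over miR-155OE (SD, n = 4 each). CDSN has a counted length of 2552 bases, and how many counted bases the 2 genes share was not examined. Whether reads were counted by strand is not given in the sources used here. Without strand, reads of any shared counted bases cannot be told apart. PSORS1C2, 17090 bases away, rose from 0.502 ± 0.150 to 1.51 ± 0.258 CPM (SD, n = 4 each; log2 fold change 1.60, edgeR adjusted p = 0.0142), and lost the call without CTRL 3 or miR-155OE 1 (highest adjusted p = 0.0561).

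Of 16 tested genes of the corneodesmosome and its shedding, CDSN left out, 4 rose and 0 fell on group alone, with a median log2 fold change of 0.20 (background 2.17% higher and 1.05% lower). At an unadjusted p under 0.05, 7 were higher and 2 lower (background 10.7% and 8.66%), and DESeq2 called 6 higher and 1 lower (background 5.13% and 2.95%). The 4 were the cadherins DSC1 (3.84, SE 0.63) and DSG1 (1.64, SE 0.29), the kallikrein inhibitor SERPINA12 (2.06, SE 0.34) and KLK5, a kallikrein of shedding (0.88, SE 0.16, named after its value was seen). SERPINA12, which blocks KLK7, went from 6.49 ± 2.27 to 27.2 ± 13.7 CPM (SD, n = 4 each; edgeR adjusted p = 0.0135). With the block 6 rose, KLK7 (0.44) and KLK8 (0.50) being added, and 2 fell, CST6, a cystatin inhibitor of cathepsins (−0.52, SE 0.05, adjusted p = 0.0010), and SPINK9, a kallikrein inhibitor (−1.65), against 7.43% and 5.17% of all tested genes. SPINK9 did not pass once both libraries of any 1 number were left out, CST6 passed each time, and KLK7 and KLK8 did not pass without number 1. DSC1 lost its call without CTRL 1 or 3 (highest adjusted p = 0.0629), DSG1 without CTRL 1, 2 or 3 or miR-155OE 1 (0.0702), KLK5 without CTRL 1 or miR-155OE 1 or 3 (0.0657) and SERPINA12 without CTRL 3 (0.0513). The abundant desmosomal genes of all layers had small differences that did not pass: DSP 0.13, JUP 0.04 and PKP1 0.11 on the log2 scale.

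SBSN, DMKN and KRTDAP, which encode the secreted proteins suprabasin, dermokine and keratinocyte differentiation associated protein, are neighbours on the minus strand of chromosome 19. They lie at chr19:35523367-35528351 (ENSG00000189001), chr19:35497220-35513658 (ENSG00000161249) and chr19:35487324-35495558 (ENSG00000188508). Gaps of 9709 bases (SBSN to DMKN) and 1662 bases (DMKN to KRTDAP) part them. SBSN stood at 2189, 1829.8, 1708 and 2298 CPM in CTRL 1 to 4 and at 2638, 2017, 2776 and 2445 CPM in miR-155OE 1 to 4. DMKN stood at 2001, 1873, 1637 and 1928 CPM in CTRL and at 2194, 1879, 2210.2 and 2070.3 CPM in miR-155OE. Both were abundant and steady, with coefficients of variation of 7.33 to 14.1% within groups, and their groups overlapped.

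SBSN did not pass in either fit (edgeR adjusted p = 0.231, log2 fold change 0.30, SE 0.13; with the block adjusted p = 0.0844). DMKN did not pass either (edgeR adjusted p = 0.364, log2 fold change 0.17, SE 0.09; with the block adjusted p = 0.209), and its 95% interval on group alone ran from −0.04 to 0.37. In pair 2 the DMKN libraries differed by 1.00-fold. KRTDAP, beside them, stood at 333, 357, 637 and 949 CPM in CTRL 1 to 4 and at 1091, 672, 2321 and 2253 CPM in miR-155OE 1 to 4. Libraries 3 and 4 were the high ones in both groups, and miR-155OE 2 lay among the CTRL libraries. The KRTDAP means were 569 ± 288 and 1584 ± 829.7 CPM (SD, n = 4 each). On group alone KRTDAP did not pass (edgeR adjusted p = 0.0888, log2 fold change 1.48, SE 0.43), although it passed there without miR-155OE 2 (1.73, adjusted p = 0.0203). With the replicate block it rose (edgeR adjusted p = 0.00102, log2 fold change 1.43, SE 0.14), the lowest adjusted p of the 10 genes in that fit, and pairs 1 to 4 were higher by 3.28-, 1.88-, 3.64- and 2.37-fold.

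Reads of KRTDAP per read of DMKN were 0.167, 0.191, 0.389 and 0.492 in CTRL 1 to 4 and 0.497, 0.358, 1.05 and 1.09 in miR-155OE 1 to 4. The ratio was higher in miR-155OE by 2.40-fold on average and in 4 of 4 pairs, but the groups overlapped through miR-155OE 2 (exact permutation test, two-sided, p = 0.114; exact sign-flip test over the pairs p = 0.125, the smallest that 4 pairs allow). Against SBSN the ratio was 2.19-fold higher, with the same p of each kind, and 0.114 after adjustment over these 2 ratios, which were chosen after the values were seen. Of other tested genes within 50000 bases of KRTDAP, FFAR2, a short-chain fatty acid receptor 35557 bases away, passed with the block alone (edgeR adjusted p = 0.00459, log2 fold change 1.01, SE 0.15), and TMEM147-AS1 passed in neither fit (0.05, adjusted p = 0.873).

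CNFN, which encodes the envelope protein cornifelin (ENSG00000105427, chr19:42387019-42390287), stood at 683, 449, 499 and 628 CPM in CTRL 1 to 4 and at 862, 625, 1052 and 912 CPM in miR-155OE 1 to 4. Only miR-155OE 2 lay within the CTRL range. Its means were 565 ± 109 and 863 ± 178 CPM (SD, n = 4 each). On group alone CNFN missed the threshold in edgeR (log2 fold change 0.61, SE 0.17, adjusted p = 0.0771) and passed it without miR-155OE 2 (adjusted p = 0.0141). It rose with the block (edgeR adjusted p = 0.00874, log2 fold change 0.61, SE 0.11), by DESeq2 (adjusted p = 0.00824) and in the authors' deposited table (adjusted p = 0.00793).

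CALML5, the calmodulin-like skin protein, a calcium binder of differentiating keratinocytes (ENSG00000178372, chr10:5498697-5499555), stood at 40.9, 44.8, 47.8 and 122 CPM in CTRL 1 to 4 and at 111, 72.5, 175 and 208 CPM in miR-155OE 1 to 4. CTRL 4 stood well apart from the other CTRL libraries, and miR-155OE 1 and 2 lay below it. The means were 63.8 ± 38.7 and 142 ± 61.0 CPM (SD, n = 4 each). The difference did not pass on group alone (edgeR adjusted p = 0.143, log2 fold change 1.15, SE 0.40) and passed with the block (1.19, SE 0.17, adjusted p = 0.00386). Without CTRL 4 the log2 fold change on group alone was 1.67 (edgeR adjusted p = 0.0266), and without miR-155OE 2 the difference also passed (adjusted p = 0.0461). CALML3, the neighbouring calmodulin-like gene 24454 bases away, passed in neither fit (0.22, edgeR adjusted p = 0.696).

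KPRP, a proline-rich keratinocyte protein (ENSG00000203786, chr1:152759561-152762052), stood at 214, 129, 146 and 245 CPM in CTRL 1 to 4 and at 217, 266, 448 and 237 CPM in miR-155OE 1 to 4. It was the 1 gene of the 10 without a higher miR-155OE value in each pair: pairs 1 and 4 were level (1.02- and 0.970-fold), and pairs 2 and 3 were higher by 2.06- and 3.07-fold. The means were 183 ± 54.9 and 292 ± 106 CPM (SD, n = 4 each), and KPRP passed in neither fit (edgeR adjusted p = 0.179, log2 fold change 0.67, SE 0.25; with the block adjusted p = 0.113). Without miR-155OE 3 the log2 fold change was 0.39.

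C1orf68, named KPLCE in RefSeq, a small gene of the epidermal differentiation complex (ENSG00000198854, chr1:152719522-152720470), was close to silent. It had 2, 13, 1 and 62 reads in CTRL 1 to 4 and 35, 41, 45 and 73 reads in miR-155OE 1 to 4. Libraries 1 to 3 of miR-155OE were alike and the fourth was higher, and the CTRL libraries ran from 1 read to nearly the level of the highest miR-155OE library. With 1 and 2 reads in a pair of CTRL libraries, no fold within pairs is given. C1orf68 passed in neither fit (edgeR adjusted p = 0.406, log2 fold change 1.38, SE 0.82, and adjusted p = 0.0692 with the block). Without CTRL 4 its log2 fold change on group alone was 3.22 (edgeR adjusted p = 0.0403), so that 1 library set the size of the estimate.

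KPRP and C1orf68 lie 39091 bases apart among the late cornified envelope (LCE) genes. Of the 8 LCE1 and LCE2 genes within 50000 bases of either, LCE1E rose on group alone (edgeR adjusted p = 0.0420, log2 fold change 1.63, SE 0.36). LCE1B, LCE1C, LCE1D, LCE1F, LCE2A, LCE2B and LCE2C had log2 fold changes of 1.29 to 1.82 on group alone and passed with the block only. LCE1E lost its call without each library except CTRL 4 and miR-155OE 2 (highest adjusted p = 0.123). The log2 fold changes of these 8 genes were above that of KPRP, 0.67, and whether KPRP differs from an LCE gene was not tested. Of the other tested neighbours of CASP14, CNFN and CALML5 within 50000 bases, none passed in either fit.

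Levels per length were compared only with CPM divided by the gene's counted length in kilobases. In CTRL the order was SBSN (1010.1 ± 142), CNFN (937 ± 181), KRTDAP (861 ± 436), CDSN (559 ± 162), DMKN (249.8 ± 21.2), CALML5 (74.3 ± 45.1), KPRP (73.6 ± 22.0), CASP14 (26.6 ± 5.36), ASPRV1 (8.74 ± 4.31) and C1orf68 (0.541 ± 0.781 CPM per kilobase, SD, n = 4 each). SBSN and CNFN, CNFN and KRTDAP, KRTDAP and CDSN, and CALML5 and KPRP overlapped within 1 SD, and the other neighbours in that order did not. In miR-155OE KRTDAP came first (2397 ± 1255), ahead of CNFN (1430.4 ± 294) and SBSN (1243 ± 166), with spreads that overlap. DMKN has 24 coding transcripts in GENCODE 29 and a counted length of 7444 bases that covers them together, so its level per kilobase is a low estimate.

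Together the 10 genes took 0.677 ± 0.0766% of all CTRL reads and 0.971 ± 0.135% of all miR-155OE reads (SD, n = 4 each), with no overlap between the groups. Within that pool the shares shifted. SBSN went from 29.5 ± 1.19 to 25.5 ± 1.17% and DMKN from 27.5 ± 1.62 to 21.7 ± 2.13% of the reads of the 10 genes, without overlap of the groups in either case. KRTDAP went from 8.43 ± 4.04 to 15.7 ± 6.84%, with overlap, and CDSN kept 21.0 ± 5.22 and 20.8 ± 5.33% (SD, n = 4 each). These shares sum to a fixed total, so a lower share of SBSN or DMKN is not a lower level.

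The size of the difference varied by pair. The median log2 difference over the 10 genes was 0.75, 0.69, 1.74 and 0.56 in pairs 1 to 4. All 10 genes had their largest difference in pair 3. C1orf68, included here and in the medians, rested there on 1 read in CTRL 3 and 45 reads in miR-155OE 3. Pair 3 was the least certain pair, since deviations from the group means correlated at only 0.183 between its libraries. With CTRL 4, miR-155OE 3 correlated at 0.401, so differences in pair 3 may compare libraries that do not belong together. Over all tested genes 29.1% had their largest signed difference in pair 3, and 39.1% of the 7328 genes whose mean difference was above 0. The epidermal keratin KRT1 was also highest in miR-155OE 3, at 9626 CPM, and lowest among the miR-155OE libraries in number 2, at 2678 CPM. Pair 2 had the smallest difference for 5 of the 10 genes, pair 4 for 3 and pair 1 for 2.

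**Figure D3:**
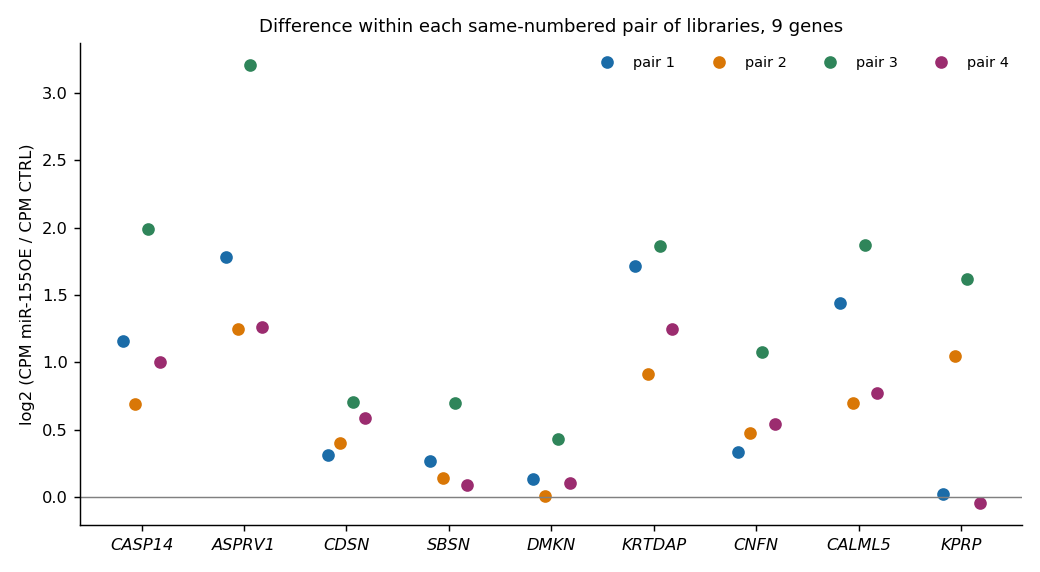
Difference within each same-numbered pair of libraries, log2 of CPM in miR-155OE over CPM in CTRL, for 9 genes (C1orf68 is left out because of its low reads); each colour is a pair. The green points of pair 3 are the highest for every gene, and only KPRP has a point below 0, in pair 4.

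Across the 8 libraries every one of the 45 pairs of genes correlated above 0 on the log2 CPM scale (Pearson r 0.07 to 0.96, median 0.76), which includes the difference between the groups. After the group means were subtracted, r ran from −0.75 to 0.92 with a median of 0.52 and was above 0 for 39 of the 45. These are descriptions over 8 libraries that share 4 numbers. The highest was KRTDAP with CALML5 (0.92), both highest in CTRL 4 among the controls and in miR-155OE 3 and 4 among the others, followed by SBSN with DMKN (0.91) and SBSN with CNFN (0.90). The lowest was KRTDAP with CDSN (−0.75), with CDSN higher in numbers 1 and 2 and KRTDAP in numbers 3 and 4, then CDSN with CALML5 (−0.69). The adjacent genes DMKN and KRTDAP had an r of 0.19.

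**Figure D4:**
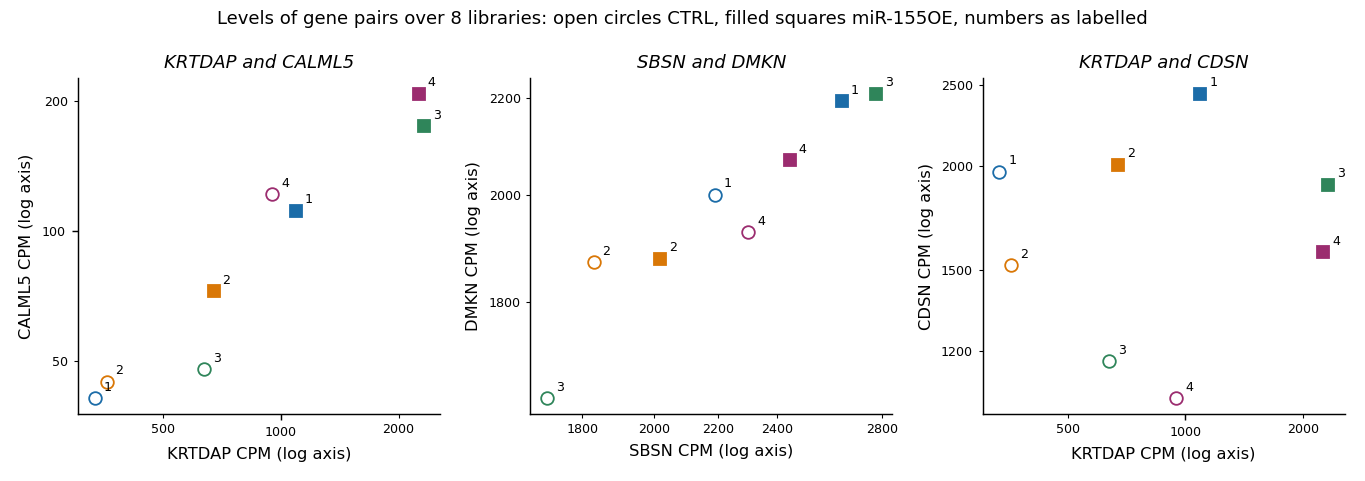
Levels of 3 gene pairs in the 8 libraries, both axes CPM on a log scale, open circles CTRL, filled squares miR-155OE, with the library number beside each point. KRTDAP and CALML5 are high in the same libraries, as are SBSN and DMKN, whereas within a group the libraries highest in CDSN (1 and 2) are the lowest in KRTDAP.

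Genes outside the 10 with the most similar pattern were found by Pearson r of log2 CPM over the 8 libraries, among tested genes with a mean of at least 1 CPM. For CASP14 they were ZHX2, ATP6V1H and MBOAT2 (r 0.981, 0.980 and 0.979), and for ASPRV1 ACSBG1, ADGRL1 and DEPTOR (0.996, 0.985 and 0.983). CDSN had AL162458.1, AP003469.4 and HEY1 (0.993, 0.965 and 0.963), SBSN had GABPB2, SNX27 and AKT1S1 (0.987, 0.980 and 0.976), and DMKN had MVB12B, ZNF503-AS2 and RPL30 (0.986, 0.979 and 0.960). KRTDAP was closest to LIPN, an epidermal lipase of the cornifying layer, with RAB6A and CREG1 next (0.995, 0.992 and 0.991). CNFN was closest to AC115522.1, TMEM185A and LYPD5 (0.988, 0.977 and 0.976), and CALML5 to NEBL, ASAP3 and SEMA4A (0.993, 0.989 and 0.988). KPRP was closest to FAM110C, AL022341.1 and AL139247.1 (0.978, 0.974 and 0.964), and C1orf68 to CLCN4, B9D1 and IBA57 (0.968, 0.962 and 0.955). Each r is the highest found over many candidates and 8 points, and the r of all 30 stayed at 0.936 or more after the group means were subtracted. LIPN itself went from 7.78 to 14.5 CPM on average and passed with the block only (log2 fold change 0.88, edgeR adjusted p = 0.00279). ACSBG1, an acyl-CoA synthetase, rose in both fits (1.23 on group alone, edgeR adjusted p = 0.0246).

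Of 16 tested genes of the cornified envelope, 1 rose and 0 fell on group alone (5 higher and 4 lower at an unadjusted p under 0.05, and 4 higher and 2 lower by DESeq2), and the median log2 fold change was −0.09. The riser was LCE1A (edgeR adjusted p = 0.0382, log2 fold change 1.16, SE 0.25). Over all tested genes 2.17% rose and 1.05% fell on group alone, and 7.43% rose and 5.17% fell with the block. Of the same genes 10.7% were higher and 8.66% lower at an unadjusted p under 0.05, and DESeq2 called 5.13% higher and 2.95% lower. With the block LCE1A, LCE1B (1.59, SE 0.25), LCE2A (1.83, SE 0.43), LCE2B (1.49, SE 0.27) and the transglutaminase TGM5 (0.42) rose, and PPL, CRCT1 and LCE3E fell (−0.32, −0.45 and −0.41). TGM5 and the falls were named after their values were seen. The blocked falls were 0 without both libraries of number 1 or of number 4, 6 without number 2 and 2 without number 3, while 4 or 5 genes rose each time. LOR and IVL, the genes of the envelope proteins loricrin and involucrin, passed in neither fit (−0.09 and 0.05 on group alone). LCE1A lost its call without each library except CTRL 4 and miR-155OE 2 (highest adjusted p = 0.112).

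Of 20 tested transcriptional regulators of keratinocyte differentiation, 0 passed on group alone in edgeR, where 2.17% of all tested genes rose and 1.05% fell. At an unadjusted p under 0.05, 3 were higher and 0 lower (background 10.7% and 8.66%), and DESeq2 called 2 higher (background 5.13%). With the block 5 rose and 0 fell: CEBPA (edgeR adjusted p = 0.00720, log2 fold change 0.59, SE 0.10), RORA (0.52, SE 0.09), GATA3 (0.93, SE 0.20), GRHL1 (0.20, SE 0.05) and KLF4 (0.25, SE 0.07), the last 2 named after their values were seen. Of all tested genes 7.43% rose and 5.17% fell with the block. Without both libraries of number 1, 3 or 4 the blocked count of regulators was 2 (CEBPA and RORA), and without number 2 it was 5. The median log2 fold change of the 20 was 0.10. The 10 genes had a higher median than each of these 4 lists, 0.91, and the difference between the lists was not tested.

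**Figure D5:**
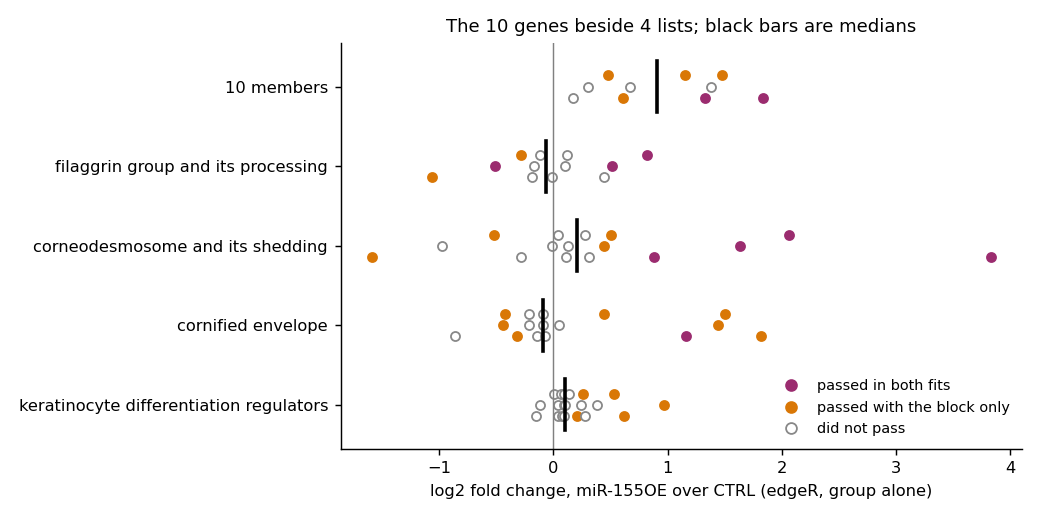
Log2 fold change (miR-155OE over CTRL, edgeR on group alone) of the 10 genes and of 4 lists around them, 1 point per gene, with black bars at the medians; purple points passed in both fits, orange points with the replicate block only, open points in neither. All 10 genes lie right of 0 (median 0.91), while the lists spread on both sides of it (medians −0.07, 0.20, −0.09 and 0.10).

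Some markers of other epithelial programmes differed too, epidermal keratins upward and esophageal markers downward. Their part in the differences of the 10 genes was not tested. Of 3 epidermal suprabasal keratins 1 rose, KRT1 (edgeR adjusted p = 0.00685, log2 fold change 2.73, SE 0.39), KRT10 passed with the block only (1.06, adjusted p = 0.00687) and KRT2 in neither. Their summed level ran from 2743 to 8340.0 CPM in CTRL and from 5853 to 21125 CPM in miR-155OE. Of 8 esophageal suprabasal markers 1 fell on group alone, KRT78 (−0.68, edgeR adjusted p = 0.0462, lost without each library except miR-155OE 2, and with library totals as the only scaling, adjusted p = 0.0541), and 7 fell with the block. That blocked count was 2 without both libraries of number 1, 3 without number 4 and 7 without number 2 or 3. Over all tested genes 2.17% rose and 1.05% fell on group alone, and 7.43% rose and 5.17% fell with the block. The esophageal markers had a median log2 fold change of −1.56 on group alone. Their sum ran from 1535 to 2169 CPM in CTRL and from 284 to 1433 CPM in miR-155OE, and none was at 0. Of 8 basal keratinocyte markers 0 passed on group alone (0 higher and 1 lower at an unadjusted p under 0.05, 0 by DESeq2), 2 fell with the block (1 to 3 without both libraries of 1 number), and the sums overlapped, at 20427 to 26292 and 18359 to 24964 CPM.

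Most defining genes of other cell types were at or near 0 reads. Of 7 fibroblast genes COL1A2, COL3A1, DCN and LUM had 0 reads, and the list's sum, 92.8 to 145 CPM in CTRL and 98.2 to 221 CPM in miR-155OE, was nearly all COL1A1. Of the immune genes, CPA3 had 0 reads, PTPRC had 1 read in all, and the sum of 7.58 to 9.67 CPM in CTRL and 8.68 to 15.1 CPM in miR-155OE was nearly all CD14. Endothelial and melanocyte lists summed to at most 2.99 and 2.43 CPM. Of 8 columnar epithelium genes, CDX2 had 0 reads, and the sums (45.2 to 53.9 CPM in CTRL and 35.1 to 48.3 CPM in miR-155OE) were nearly all KRT8 and KRT18. With the block COL1A1 and CD14 passed as higher (edgeR adjusted p = 0.0451 and 0.0239, log2 fold changes 0.40 and 0.44) and KRT18 as lower (−0.28, adjusted p = 0.0398), and none of the 3 passed on group alone. CD14 and KRT18 lost the call without both libraries of number 1, 3 or 4, and COL1A1 without number 1 or 3. The part of these genes in the differences of the 10 was not tested.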

How the data were processed

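RNA-seq counts of 8 libraries were used, 4 CTRL and 4 miR-155OE, grouped by their labels. Per the submitters' processing notes, HISAT2 2.0.5, featureCounts 1.5.0-p3 and DESeq2 were used with GRCh38. Options, strand setting and annotation release are not given in the sources used here. The deposited table of raw counts gives whole numbers for each gene beside its name, position and length, per the file headers. The authors' second table holds a normalised signal per library (not tested here), the authors' log2 fold change, and a p-value and adjusted p-value by the authors, used only for its calls. Its adjusted p-values were read for 25529 genes.

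Counts were fitted on the whole table in R 4.3.3 with edgeR 4.0.16 (filterByExpr, TMM, quasi-likelihood F test on group alone, false discovery rate 0.05 by Benjamini-Hochberg). CPM uses TMM-scaled sizes. SEs and 95% intervals derive from the fold change and its F statistic, so they restate the test. Alternatives used DESeq2 1.42.0, RLE factors, library totals, no filter, the replicate block and each library left out. Other work used Python 3.11.15, pandas 2.3.3, scipy 1.17.1, numpy 2.4.6 and matplotlib 3.10.9. Scripts were tested on simulated data with 200 changed genes. Files and GENCODE 29 agree in position for 58724 of 58735 genes.

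Chi-square per degree of freedom was 14.4 to 74.8 between libraries of a group, so no 2 agree within counting error. Floors in reads cover counting error only. Deviations from the group means, over 10314 genes, correlated between same-numbered libraries at 0.575, 0.493, 0.183 and 0.603, all above 0.1, and the numbers were therefore treated as pairs. The labels do not say what a number shares, and some libraries of different number also passed 0.1. CTRL 1 correlated with miR-155OE 2 at 0.273 and CTRL 2 with miR-155OE 1 at 0.263, both below the same-numbered values of these libraries. All combinations of number 1 or 2 with 3 or 4 were negative, so the 0.1 mark does not by itself single out pairs. Number 3 was the weakest pair: CTRL 3 correlated slightly more with miR-155OE 4 (0.203), and miR-155OE 3 more with CTRL 4 (0.401). Blocked values stand beside results whose call they change.

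Named were all 10 genes, of each list the 3 lowest p on group alone and the 3 with the block, the 3 closest genes in pattern of each (mean of at least 1 CPM), and overlapping or tested genes within 50000 bases. The 10 genes and the lists were chosen with earlier results of these data known.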

Additional observations from a re-analysis of the deposited data

Results flagged for a closer look

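In groups of 4 libraries, 20 sets of values (10 genes in 2 groups) were checked for a single library far from the other 3, and 2 stood out, where chance flags about 1 in 20 groups. CALML5 was at 122 CPM in CTRL 4, far above the other CTRL libraries (40.9 to 47.8 CPM). C1orf68 was at 2.00 CPM in miR-155OE 4, above the other miR-155OE libraries (1.05 to 1.15 CPM), a value that rests on 73 reads.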

How the results depend on the processing

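No fold change of the 10 genes changed direction under any of the 17 settings each was run under. Of 170 values, 128 kept their side of the threshold, 12 no longer passed and 30 newly passed. Of all genes, 488 were called on group alone. With the replicate block it was 1908, by DESeq2 1223, without the filter on low counts 927, and 125 (without miR-155OE 1) to 1274 (without miR-155OE 2) with 1 library left out. Of the 10 genes, 2 were called on group alone, 6 with the replicate block, 5 without the filter, and 0 to 5 with 1 library left out. RLE factors and library totals moved neither count by over 1.5 times. Paired fits without both libraries of a number, chosen after seeing the data, called 623 genes without number 1, 2059 without number 2, 1389 without number 3 and 971 without number 4 in the replicate block, and 6 (without number 1, 2 or 3) or 7 (without number 4) of the 10. The smaller designs have fewer samples, and other causes were not tested. Depth limits C1orf68 alone, at 1 to 73 reads. The other 9 had 534 reads or more in every library, and what limited their calls was not tested.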
